A study of Mus musculus with 6 samples.

Results

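The 10 genes examined here are markers of cells that are rare in retina: 6 mark microglia (Cx3cr1, P2ry12, Tmem119, C1qa, Csf1r and Aif1) and 4 mark the endothelium of vessels (Cldn5, Pecam1, Cdh5 and Kdr). They were chosen by name, and every peak whose summit lay inside such a gene or within 10 kb of it was taken from 6 deposited peak lists. All 10 genes were found among the 21900 protein-coding genes of the gene table. They held 0, 19 and 0 of the 1444, 138254 and 519 peaks of Bmal1 CKO 1, 2 and 3, and 46, 0 and 0 of the 179475, 410 and 372 peaks of Control 1, 2 and 3. The libraries are chromatin immunoprecipitation sequencing (ChIP-seq) of retina with a rabbit antibody against BMAL1, a transcription factor of the circadian clock. Per the labels, 3 were made from Bmal1 conditional knockout (CKO) retina and 3 from wild-type retina (Control). All mice were of the C57BL/6 strain and had no external treatment. The labels used here give neither the Cre driver of the knockout, nor whether microglia or vessels lost the gene, nor age or time of day. Which list belongs to which library follows the series record alone, because the lists as named are numbered otherwise than the titles. The peak lists can check neither that assignment nor the knockout label. Whether each library is a separate animal is likewise not stated, so the tests below measure the spread between libraries, which may be technical.

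Microglia are the resident macrophages of the retina, which survey the tissue, prune synapses and clear debris. Endothelial cells line the retinal vessels and, through tight and adherens junctions, form the inner blood-retina barrier. BMAL1 pairs with CLOCK and binds E-boxes, of which CACGTG is the best known form. In ChIP of whole retina, the cells that a peak comes from cannot be told apart, and the peak lists measure no expression. The label of these genes as cell markers therefore cannot be checked with these data.

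Sequence was shown for 3 of the 5 genes with an entry in the RefSeq promoter table (GRCm38.p6, the chromosome coordinates of mm10), because they differ in peaks and motifs at the start. Each window runs from 250 bases before to 50 bases after the annotated start, 5′ to 3′ on the gene's strand. Capitals mark the motifs searched on both strands: CACGTG, the related CACGTT, and GAGGAA, the core bound by PU.1, a factor that macrophages depend on. The 2 matches below are on different genes and share no bases.
P2ry12 (chr3:59262936-59263235, minus strand): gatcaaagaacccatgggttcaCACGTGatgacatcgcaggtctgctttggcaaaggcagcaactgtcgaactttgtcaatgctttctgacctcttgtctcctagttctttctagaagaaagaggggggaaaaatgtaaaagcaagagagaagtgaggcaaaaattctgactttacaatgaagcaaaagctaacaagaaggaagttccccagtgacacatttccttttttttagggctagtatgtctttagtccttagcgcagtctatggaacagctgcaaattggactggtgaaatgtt
Aif1 (chr17:35176003-35176302, minus strand): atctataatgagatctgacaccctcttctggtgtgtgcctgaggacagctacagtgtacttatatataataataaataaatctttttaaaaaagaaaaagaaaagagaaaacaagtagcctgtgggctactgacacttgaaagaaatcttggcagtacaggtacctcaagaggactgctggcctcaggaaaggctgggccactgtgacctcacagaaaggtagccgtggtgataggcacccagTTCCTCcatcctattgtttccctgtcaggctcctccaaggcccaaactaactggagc
Kdr (chr5:75978406-75978705, minus strand): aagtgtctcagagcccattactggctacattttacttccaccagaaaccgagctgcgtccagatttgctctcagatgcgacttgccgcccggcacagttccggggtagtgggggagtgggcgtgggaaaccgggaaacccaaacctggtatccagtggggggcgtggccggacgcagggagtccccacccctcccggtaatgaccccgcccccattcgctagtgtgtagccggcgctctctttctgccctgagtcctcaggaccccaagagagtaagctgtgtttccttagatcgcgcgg

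The P2ry12 window held a CACGTG that began at base −228 relative to the start. This motif was in 2349 of 32851 promoter windows (7.15%). No library listed a summit within 1 kb of the P2ry12 start. The nearest summits lay 1939 bp away in Bmal1 CKO 2 and 2003 bp away in Control 1. Over all windows with CACGTG, 61.2% had a summit within 1 kb of the start in Bmal1 CKO 2 and 71.7% in Control 1. Over the windows without it, the shares were 44.9% and 54.2%. CACGTG itself holds a CpG dinucleotide, and the shares were not adjusted for CpG content, which is given below. The Aif1 window held GAGGAA on the opposite strand, printed as TTCCTC, that began 7 bases before the start. That core was in 28.3% of all windows. The Kdr window held none of the 3 motifs, and neither did those of Cx3cr1 and Cldn5. CACGTT was in no window of the 5 genes and in 4.68% of all windows. The shares with a summit in Bmal1 CKO 2 and Control 1 were 53.1% and 60.3% with CACGTT, and 45.7% and 55.2% without it. With GAGGAA they were lower, 42.6% and 51.8%, against 47.4% and 56.9% without it. The whole printed Kdr window lay inside a peak of both long lists, chr5:75978127-75978793 in Bmal1 CKO 2 and chr5:75978119-75978870 in Control 1.

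The number of CpG dinucleotides in these windows differed between the 5 genes. Aif1 had 1, P2ry12 had 4, Cx3cr1 had 5, Cldn5 had 12 and Kdr had 19, against a median of 7 over all windows. Only Kdr and Cldn5 had a summit within 1 kb of the start, Kdr in Bmal1 CKO 2 and Control 1 and Cldn5 in Control 1 alone. Over all 32851 windows the shares with such a summit were 46.1% in Bmal1 CKO 2 and 55.4% in Control 1. Windows with 0 to 3 CpGs had one in 15.0% of cases in Bmal1 CKO 2 and 18.9% in Control 1. The shares were 25.4% and 37.2% with 4 to 7 CpGs, 64.7% and 77.8% with 8 to 20, and 84.0% and 94.7% with 21 to 67. The part of CpG content in the peaks at these 5 genes was not tested.

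List lengths differed widely within each genotype. The 2 long lists are those of Bmal1 CKO 2 and Control 1, and each peak at the marker genes came from one of them. At every peak solved, a whole number of fragments stacked at the summit returned the deposited −log10 p-value to within 0.002. If that reading holds, the level across the genome was 2.78, 5.83 and 0.56 fragments per base in Bmal1 CKO 1 to 3, and 3.46, 0.609 and 0.852 in Control 1 to 3. This level is the most common recovered background of a list. It was found at 36.8% of solved peaks in Bmal1 CKO 2 and 31.7% in Control 1. In the short lists it was found at only 4.30% to 12.5%. A fold here is the authors' enrichment at a summit over the background of its own library. Folds of different libraries are given side by side and no difference between them was tested.

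At least 1 peak lay in the gene or within 10 kb at 7 of the 10 marker genes in Bmal1 CKO 2 and at all 10 in Control 1. Over all protein-coding genes the shares were 87.8% and 92.6%. In Bmal1 CKO 1, Bmal1 CKO 3, Control 2 and Control 3 the count was 0 of 10, where 2.05%, 1.08%, 0.781% and 0.758% of protein-coding genes had such a peak. Over those 4 lists together, 97.6% of protein-coding genes had none. The CKO mean was 2.33 ± 4.04 genes and the control mean was 3.33 ± 5.77 (SD, n = 3 each). The difference was −1 gene, with an exact two-sided permutation p of 1, and the smallest p this design allows is 0.1. With 0 genes in 4 libraries, 0.1 was out of reach here. This p-value, and those for peak number and end peaks below, were fixed by the 2 long lists being of different genotypes. The difference was 2.33 without Control 1 and 0.167 without Bmal1 CKO 1 or Bmal1 CKO 3, so its direction rests on single libraries. For the number of peaks, as log10 of count + 1, the means were 0.434 ± 0.751 in CKO libraries and 0.557 ± 0.965 in controls (SD, n = 3 each; exact permutation p = 1). The difference in log10 counts was −0.124, or 0.434 if Control 1 was left out and 0.0931 if Bmal1 CKO 1 or Bmal1 CKO 3 was.

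**Figure D1:**
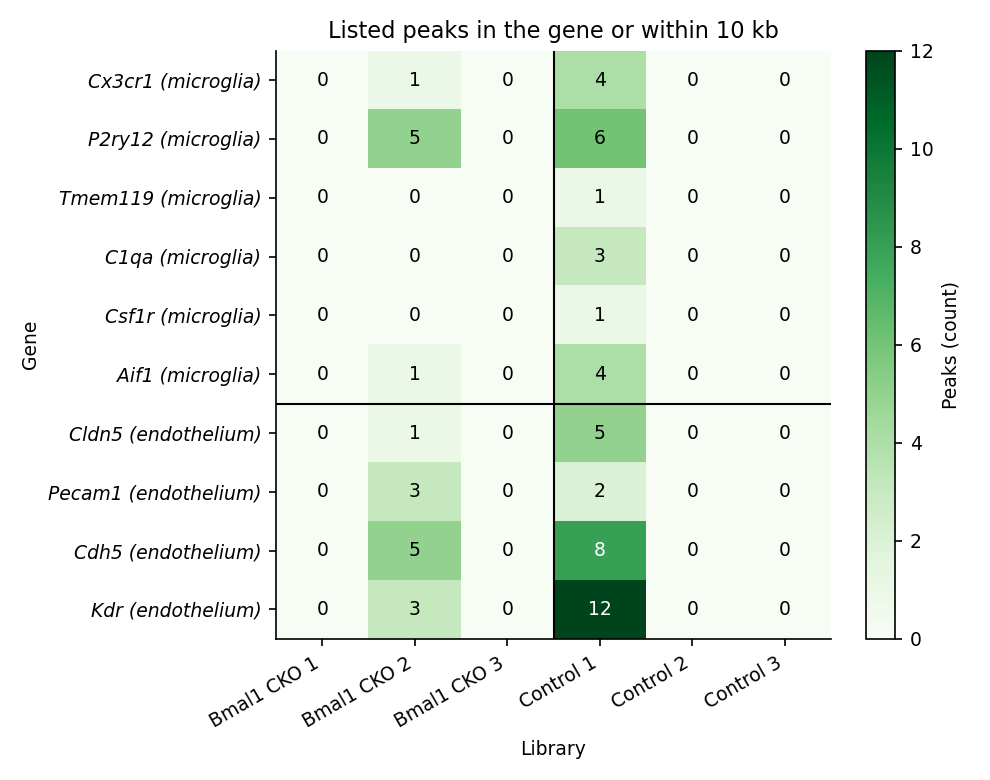
Number of listed peaks with a summit in each gene or within 10 kb (rows, microglia genes above the line and endothelial genes below) in each library (columns, Bmal1 CKO left and Control right). Peaks appear only in Bmal1 CKO 2 and Control 1, with up to 12 at Kdr in Control 1.

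The 19 and 46 peaks correspond to 0.415 and 1.00 peaks per 10 kb of the 458 kb in the 10 windows, against 0.653 and 0.886 over the windows of all protein-coding genes. The median was 1 peak per marker gene in Bmal1 CKO 2 and 4 in Control 1, and 3 and 4 per protein-coding gene. At 9 of the 10 marker genes Bmal1 CKO 2 had fewer peaks than Control 1. Over all protein-coding genes 59.9% had fewer in Bmal1 CKO 2. Control 1 is the longer list. With lists of equal length the difference was 0 at P2ry12, Tmem119 and Aif1. It stayed below 0 at Cx3cr1, C1qa, Csf1r, Cldn5, Cdh5 and Kdr. Among peaks with a −log10 q-value of 5 or more it was 0 at Cx3cr1, Tmem119, Csf1r, Cldn5 and Cdh5. It was below 0 at the other marker genes. The endothelial genes had 12 and 27 peaks and the microglia genes 7 and 19, in windows of similar total length (232 kb and 227 kb). Single genes weighed on these totals. Kdr held 12 of the 27 in Control 1. In Bmal1 CKO 2, Cdh5 held 5 of the 12 and P2ry12 held 5 of the 7. These are counts of 1 library per genotype and have no replicate check.

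**Figure D2:**
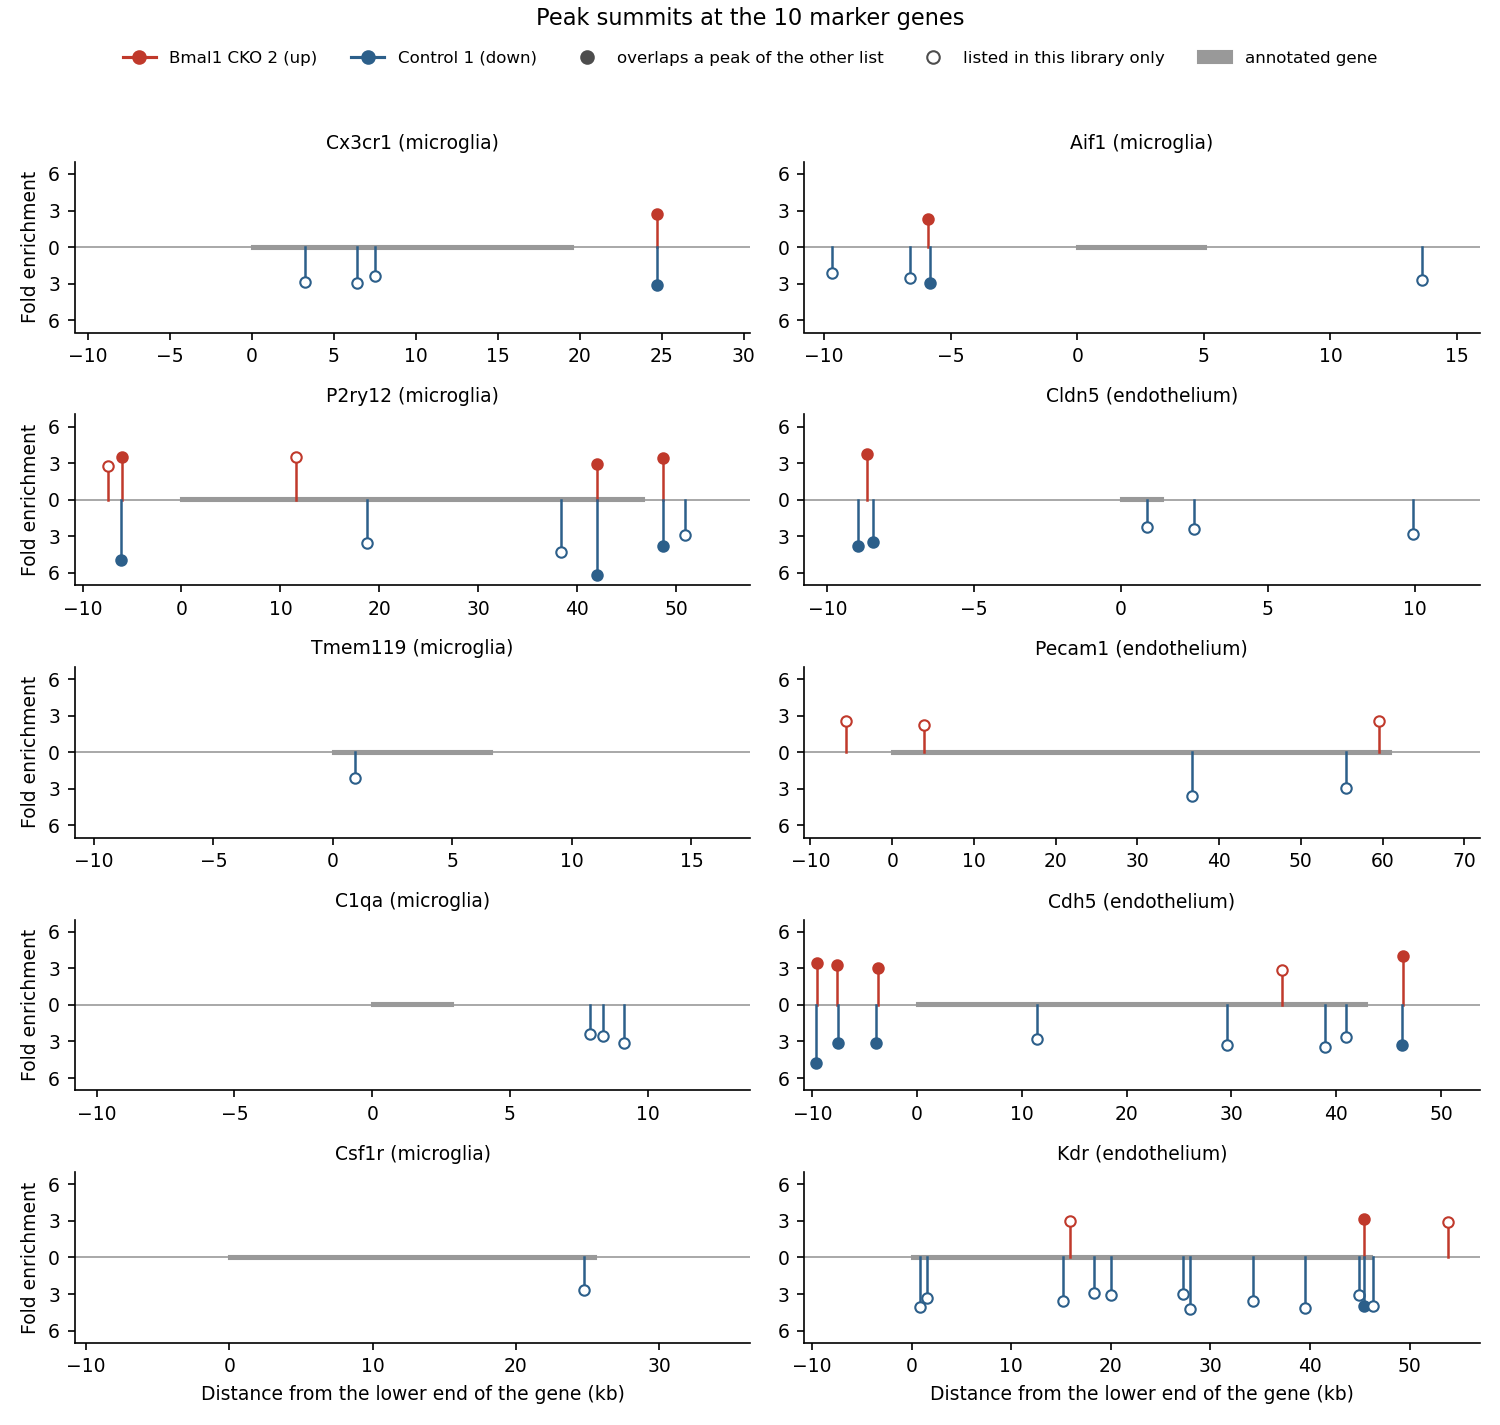
Position of each peak summit (distance from the lower-coordinate end of the gene, kb) and its fold enrichment, upward for Bmal1 CKO 2 and downward for Control 1. Grey bars are the annotated genes, and filled circles mark peaks that overlap a peak of the other list. Filled circles sit mostly outside the gene bodies.

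Cx3cr1 encodes the receptor of fractalkine, a signal from neurons to microglia (chromosome 9, 120048683 to 120068296). It had 1 peak in Bmal1 CKO 2 and 4 in Control 1. The peak of Bmal1 CKO 2 had a fold of 2.69 and lay 5080 bp upstream of the start. Control 1 had a peak at the same place, with its summit 7 bp away and a fold of 3.14, the highest of its 4 peaks. From 34 and 26 stacked fragments over backgrounds of 12 and 7.60 fragments per base, both summits stood in a region above the genome level. The other 3 peaks of Control 1 lay inside the gene, with folds of 2.33 to 2.97, and had no counterpart.

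P2ry12 encodes the ADP receptor that guides microglial processes to sites of injury (chromosome 3, 59216271 to 59262985). The gene lies inside the larger gene Med12l, so each peak in it also lies in Med12l. It had 5 peaks in Bmal1 CKO 2 and 6 in Control 1, and 3 of each overlapped. The peak inside the gene, 4716 bp from its start, had its summit at 59258269 in both lists. Its fold was 2.93 in Bmal1 CKO 2 and 6.19 in Control 1, from 19 and 27 stacked fragments over backgrounds of 5.83 and 3.52. The fold of 6.19 was the highest of all 65 member peaks and stood at percentile 98.0 of the Control 1 list, whereas 2.93 stood at percentile 48.4 of the Bmal1 CKO 2 list. Lists of different depth and length cannot show with these values whether binding differed. A second shared peak lay upstream of the start, with folds of 3.46 and 3.81. The third lay in or within 1 kb of the neighbouring P2ry13, another microglial nucleotide receptor gene. Its folds were 3.53 in Bmal1 CKO 2 and 4.98 in Control 1.

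Csf1r encodes the receptor for CSF1 and IL-34 that microglia need to survive (chromosome 18, 61105572 to 61131139). It had 0 peaks in Bmal1 CKO 2 and 1 in Control 1. That peak lay 791 bp inside the upper end, also in or within 1 kb of the neighbouring gene Hmgxb3, with a fold of 2.67. Tmem119, which encodes a membrane protein used to tell microglia from blood-derived macrophages (chromosome 5, 113793729 to 113800396), had 0 peaks in Bmal1 CKO 2 and 1 in Control 1. With a fold of 2.10, 944 bp inside the lower end, it had the lowest fold of the 46 peaks of Control 1. C1qa, which encodes a chain of the complement protein C1q (chromosome 4, 136895916 to 136898844), had 0 peaks in Bmal1 CKO 2 and 3 in Control 1. The 3 lay together, 4974 to 6218 bp beyond the upper end, with folds of 2.35 to 3.13. Csf1r, Tmem119 and C1qa were the 3 of 10 marker genes with a peak in Control 1 and none in Bmal1 CKO 2, a pattern seen at 6.74% of protein-coding genes. Among peaks with a −log10 q-value of 5 or more, C1qa alone of these 3 genes kept a peak in Control 1. With the Control 1 list cut to the length of the Bmal1 CKO 2 list, C1qa and Csf1r kept 1 each and Tmem119 kept 0. The reverse pattern was seen at 0 of 10 and at 2.02% of protein-coding genes.

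Aif1 encodes IBA1, the calcium-binding protein by which microglia are commonly stained (chromosome 17, 35170986 to 35176083). All its peaks, 1 in Bmal1 CKO 2 and 4 in Control 1, lay outside the gene. The peak shared by both lists lay 5891 bp beyond the lower end in Bmal1 CKO 2 and 5826 bp in Control 1, with folds of 2.28 and 2.92. It lies in Prrc2a or within 1 kb of its end. Of the other 3 peaks of Control 1, 2 also lay in or within 1 kb of Prrc2a. The other 1 lay in or within 1 kb of both the pseudogene Ncr3-ps and Lst1. Each peak within 10 kb of Aif1 thus lay in or within 1 kb of another annotated gene.

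Kdr encodes VEGFR2, the main receptor by which VEGF drives vessel growth (chromosome 5, 75932827 to 75979072). It had 3 peaks in Bmal1 CKO 2 and 12 in Control 1, the most of the 10 genes. At least 12 peaks were found at 10.9% of protein-coding genes in Control 1, and at least 3 at 54.6% in Bmal1 CKO 2. A difference of −9 or lower was found at 3.21% of protein-coding genes, over the full lists of unequal length. With lists of equal length the difference at Kdr was −6. It was −4 among peaks with a −log10 q-value of 5 or more, and 0 at a fold of 5 or more. The single shared peak lay at the start, with its summit 212 bp from it in Bmal1 CKO 2 and 185 bp in Control 1. Its folds were 3.16 and 4.01, from 31 and 29 stacked fragments over backgrounds of 9.12 and 6.48. It was the only end peak of Bmal1 CKO 2 among the 10 genes. In both lists it also lay in or within 1 kb of another annotated gene, Gm32727. Control 1 listed 2 more end peaks at Kdr, 130 bp beyond the upper end (fold 3.95) and 813 bp inside the lower end (fold 4.08). Further in, Bmal1 CKO 2 had 1 peak, with a fold of 2.97, and Control 1 had 9, with folds of 2.90 to 4.23. None of these 10 overlapped a peak of the other list. Of the 9, the peak nearest the start lay 700 bp from it, with a fold of 3.09. The remaining peak of Bmal1 CKO 2 lay 7640 bp beyond the upper end, with a fold of 2.89, and was not shared. It too lay in or within 1 kb of Gm32727, as did the Control 1 peaks 130 bp beyond the upper end and 700 bp from the start.

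Cdh5 encodes VE-cadherin, the adhesion protein of endothelial adherens junctions (chromosome 8, 104101613 to 104144504). It had 5 peaks in Bmal1 CKO 2 and 8 in Control 1, and 4 of each overlapped, the most of the 10 genes. All 4 lay outside the gene, and 3 of them beyond the lower end, in or within 1 kb of the long noncoding RNA gene Gm29682. These 3 had folds of 3.44, 3.24 and 3.05 in Bmal1 CKO 2 and 4.78, 3.13 and 3.16 in Control 1. The fourth lay beyond the upper end, by 3446 bp in Bmal1 CKO 2 and by 3415 bp in Control 1. Its fold of 4.0 was the highest of the 19 peaks of Bmal1 CKO 2, and Control 1 had 3.27 there. Inside the gene Bmal1 CKO 2 had 1 peak (fold 2.86) and Control 1 had 4 (2.67 to 3.42), with no overlap.

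Pecam1 encodes CD31, an adhesion protein of endothelial cell contacts (chromosome 11, 106654213 to 106715281). It was the only marker gene with more peaks in Bmal1 CKO 2 (3) than in Control 1 (2), which became 0 and 1 when weaker peaks (−log10 q-value under 5) were left out. The folds were 2.27 to 2.60 in Bmal1 CKO 2 and 2.95 and 3.62 in Control 1. None overlapped, so the gene with the longest window, 81.1 kb, had no shared peak. Cldn5 encodes claudin-5, the tight junction protein that seals the barrier (chromosome 16, 18776847 to 18778262). It had 1 peak in Bmal1 CKO 2 and 5 in Control 1. The peak of Bmal1 CKO 2 lay 8651 bp upstream of the start, with a fold of 3.74, and spanned parts of 2 peaks of Control 1, with folds of 3.76 and 3.49. Inside the gene Control 1 alone had a peak, 875 bp from the start, with a fold of 2.26.

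Within 1 kb of an annotated end, 1 of the 10 marker genes had a peak in Bmal1 CKO 2 (Kdr) and 4 had one in Control 1 (Tmem119, Csf1r, Cldn5 and Kdr). Over all protein-coding genes the shares were 58.9% and 69.5%. The 4 short lists had no end peak at these genes, and one at 0.342% (Bmal1 CKO 1), 0.105% (Bmal1 CKO 3) and 0.0594% (Control 2 and Control 3) of all protein-coding genes. Both long lists had one at Kdr alone of the 10 genes, and at 54.7% of protein-coding genes. The mean was 0.333 ± 0.577 genes in CKO libraries and 1.33 ± 2.31 in controls (SD, n = 3 each), a difference of −1 with an exact permutation p of 1. Without Control 1 it was 0.333. Both long lists thus had a lower share of marker genes with an end peak than of all genes. No test of that difference was made, since the genes were chosen with earlier results known.

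Of the 19 peaks of Bmal1 CKO 2, 11 (57.9%, 95% Clopper-Pearson interval 33.5 to 79.7) overlapped a peak of Control 1. Of the 46 peaks of Control 1, 12 (26.1%, 14.3 to 41.1) overlapped a peak of Bmal1 CKO 2. These intervals cover counting error only and treat peaks of 1 library as independent, which they are not. At all protein-coding genes the shares were 56.7% and 41.0%, the second just under the upper limit of 41.1%. Over all peaks they were 54.1% and 40.7%. Shared peaks were found at 6 of the 10 marker genes (Cx3cr1, P2ry12, Aif1, Cldn5, Cdh5 and Kdr) and at 79.7% of protein-coding genes. With a window of 5 kb they were found at 3, and 5 of 10 peaks of Bmal1 CKO 2 and 5 of 33 of Control 1 (15.2%) were shared. With lists of equal length, 11 of 19 and 12 of 31 (38.7%) were. Summits of the 11 shared peaks lay a median of 64 bp from the nearest summit of Control 1, against 77 bp over all protein-coding genes. The fold was lower in Bmal1 CKO 2 at 8 of the 11 (72.7%), and at 89.6% of shared peaks at protein-coding genes.

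**Figure D3:**
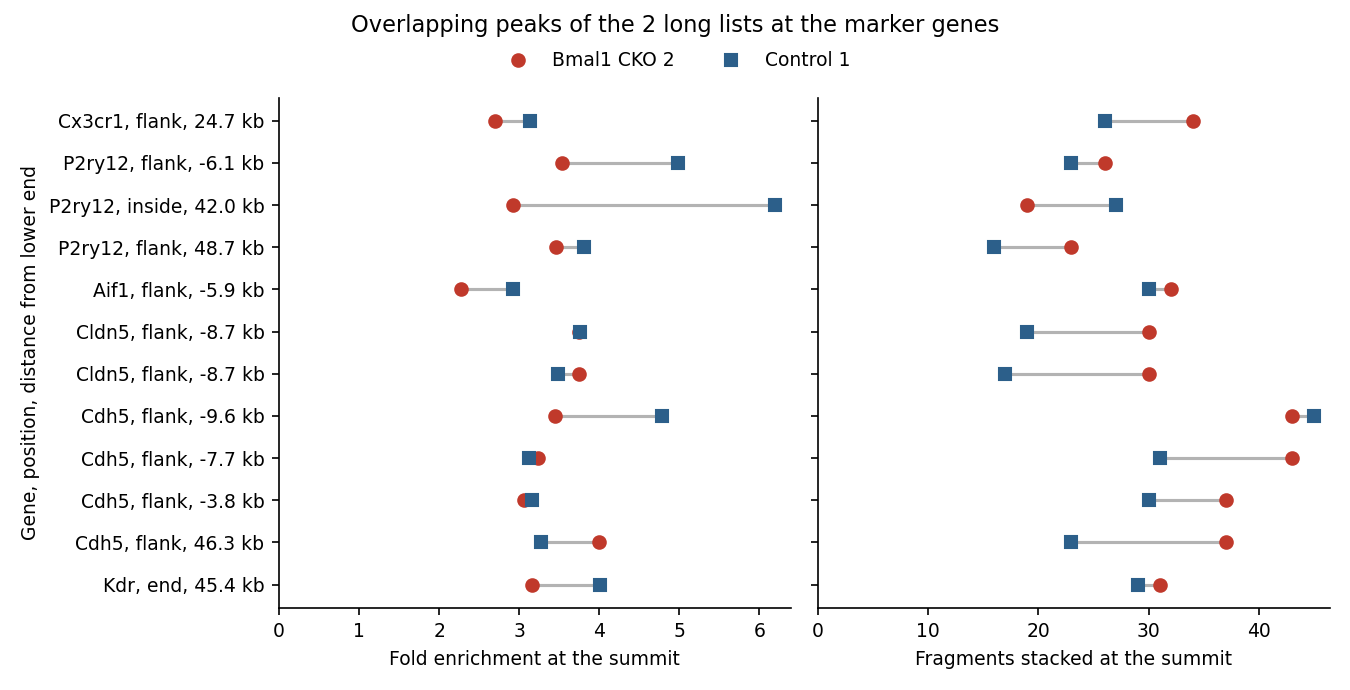
The 12 overlapping pairs of peaks at the marker genes, with Bmal1 CKO 2 as circles and Control 1 as squares: fold enrichment (left) and recovered number of fragments stacked at the summit (right). Of the 12 pairs, 9 had a lower fold and 10 had more stacked fragments in Bmal1 CKO 2. The Bmal1 CKO 2 peak of Cldn5 is drawn in both of its pairs.

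Shared peaks lay mainly in the flanks. Flank peaks made up 63.2% of member peaks in Bmal1 CKO 2 and 41.3% in Control 1, against 24.4% and 25.7% over all protein-coding genes. Flanks have the same length at every gene, so these shares depend on gene length. They were not adjusted for it, so they cannot show a preference for flanks at the marker genes. Between 1 and 10 kb outside a gene, 9 of 12 peaks of Bmal1 CKO 2 (75.0%) and 10 of 19 of Control 1 (52.6%) were shared, against 60.7% and 41.4% over all protein-coding genes. Inside a gene and over 1 kb from its ends, 1 of 6 (16.7%) and 1 of 21 (4.76%) were shared, against 50.3% and 36.1%. Both values are the P2ry12 peak. At gene ends, 1 of 1 and 1 of 6 (16.7%) were shared, against 85.8% and 65.2%. The inside peaks of Control 1 came from 5 genes, with 9 of the 21 at Kdr, so they are not independent of each other. Of the shared flank peaks, 4 in each list were at Cdh5, so these are not independent either. Exons were not told from introns here.

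Peaks were also split by strength. Among peaks with a −log10 q-value of 5 or more, 7 of 7 of Bmal1 CKO 2 and 8 of 16 of Control 1 overlapped a peak of the other list. The background was 79.3% and 59.4%. Below 5, the counts were 4 of 12 (33.3%) and 4 of 30 (13.3%), against 48.9% and 27.3%. Of the 21 inside peaks of Control 1, 6 reached a −log10 q-value of 5, and of the 19 flank peaks 7 did. The median fold of member peaks was 2.97 in Bmal1 CKO 2 and 3.13 in Control 1, against 2.93 and 3.41 for peaks at all protein-coding genes.

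The 4 short lists held no peak at the 10 genes. The nearest was 15.8 kb from Cdh5, in Bmal1 CKO 1 (fold 6.74) and Control 2 (fold 7.29). For the other genes the nearest peak of any short list lay about 120 kb or more away. If the stacked fragments of the long lists are scaled to the level of Bmal1 CKO 1, 3 of the 19 peaks of Bmal1 CKO 2 (all at Cdh5) and 21 of the 46 of Control 1 (at 8 genes) would reach the lowest −log10 p-value that library lists. It listed none of them. Scaled to Bmal1 CKO 3, Control 2 or Control 3, 0 of the 65 would reach the lowest value of that list. The part of depth in the empty short lists was not tested beyond this scaling.

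Further genes, in lists chosen by cell type, were counted in the same way. Of 20 further microglia genes, 16 had a peak within 10 kb in Bmal1 CKO 2 and 19 in Control 1, and 7 and 8 had an end peak. These genes include P2ry13, which neighbours the marker gene P2ry12, so peaks there count for both lists of genes. Of 15 further endothelial genes the counts were 13 and 15, with end peaks at 10 and 13. Of 8 pericyte genes, which mark the contractile cells around vessels, the counts were 6 and 8, with end peaks at 4 and 6. The 4 ligand genes of the member receptors (Cx3cl1, Csf1, Il34 and Vegfa) had a peak in both lists, with end peaks at 2 and 3. Of 10 Müller glia genes 9 and 10 had a peak within 10 kb and 5 and 9 an end peak. Of 10 rod genes 10 and 10 had one, with end peaks at 4 and 6. As shares, end peaks were at 35.0% and 40.0% of the further microglia genes and at 66.7% and 86.7% of the further endothelial genes. Rod genes had 40.0% and 60.0%. Differences between lists were not tested.

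**Figure D4:**
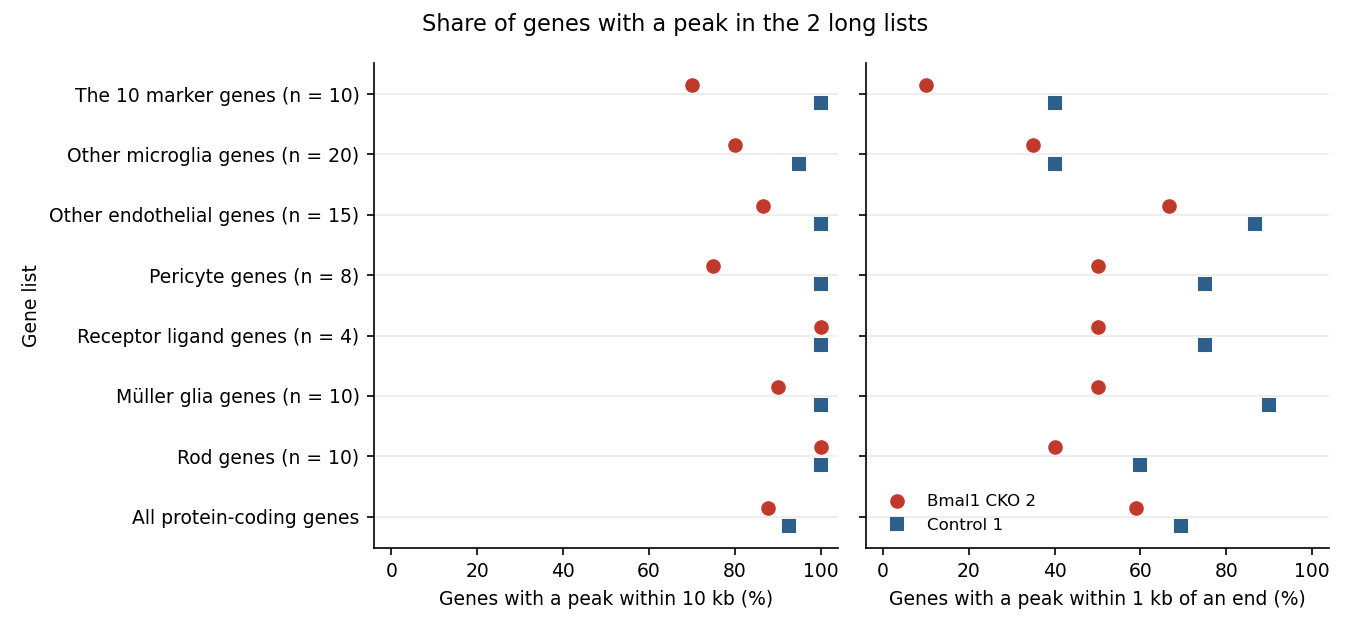
Percentage of genes with a peak within 10 kb (left) and within 1 kb of an annotated end (right) in Bmal1 CKO 2 (circles) and Control 1 (squares), for the 10 marker genes, the comparison lists and all protein-coding genes. The marker genes have the lowest end-peak share in Bmal1 CKO 2 (1 of 10), and share the lowest in Control 1 (40.0%) with the other microglia genes.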

How the data were processed

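Peak lists of 6 BMAL1 ChIP-seq libraries from mouse retina (3 Bmal1 CKO, 3 Control) were used. Trim Galore, Bowtie2, MACS2 and build mm10 are named per the submitters' processing notes; their versions and settings, and whether an input was used, are not given here. Each peak carries values deposited by the authors: the summit, its fold over background (a ratio), −log10 p-values and −log10 q-values, and a whole-number score made from the last. Peaks were called per library. The lowest −log10 q-value of a list was 1.30 to 2.53.

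Gene positions came from a RefSeq table (GRCm38.p6). End means a summit within 1 kb of either annotated end, inside means farther in, and flank means 1 to 10 kb outside. Peaks counted as shared when they overlapped by at least 1 base. Genotypes were compared by exact permutation (two-sided, 20 assignments of the libraries). Stacked fragments were solved from fold (pseudocount of 1) and Poisson p-value, over all peaks of the short lists and 3000 drawn from each long list, after tests on simulated data. Python 3.11.15, pandas 2.3.3 and scipy 1.17.1 were used. All 10 genes are named, with their highest peaks and end peaks. Alternatives were other windows, thresholds, list lengths, overlap rules, libraries left out and a replicate block. Members and lists were chosen with earlier results of these data known. The recovered depth, CpG classes and position backgrounds were added after the data were seen. The values of 1 gene of the comparison lists are not reported here.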

Additional observations from a re-analysis of the deposited data

How the results depend on the processing

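The 3 differences between genotypes (Bmal1 CKO minus Control) had exact permutation p-values of 0.7 to 1 under the alternatives run, in a design that cannot reach 0.05. Leaving out each library in turn gave −3.33 to 2.33 for the number of genes with a peak, −0.557 to 0.434 for the log10 number of peaks, and −1.67 to 0.333 for the number of genes with an end peak. All 3 differences were 0 without the longest list of each genotype and when every library kept its top 372 peaks. The end-peak difference was also 0 for peaks with a −log10 q-value of 5 or more, and for those with a fold of 5 or more. The cause was not tested.

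Shared peaks were found at 3 genes with a 5 kb window, where 15.2% of Control 1 peaks were shared. With lists of equal length that share was 38.7%. With both lists held to that q-value limit, 85.7% of Bmal1 CKO 2 peaks were shared. At a fold of at least 5, Bmal1 CKO 2 had no peak at these genes, so its share has no value; 0% of the Control 1 peaks and 0 genes were shared. The count at Pecam1 (Bmal1 CKO 2 minus Control 1, 1 peak) reversed to −1 under that same q-value limit.

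With the replicate number as a block (sign flips of 3 pairs), the differences stayed at −1, −0.124 and −1, each with an exact p of 1. Deviations over genes correlated at −0.765, −0.786 and 0.773 for libraries numbered 1, 2 and 3. The 2 long lists correlated at 0.789, and each sign went with list length. These values therefore cannot show whether the numbers pair the libraries. Scaled to the 3 shallowest libraries, 0 of the 65 peaks reached the lowest p-value listed there. Scaled to Bmal1 CKO 1, 3 of 19 and 21 of 46 did, and that library listed none.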
